A study of Mus musculus with 9 samples.

Results

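Extracellular matrix genes were followed in lymphomas of Bcl6 and Smc3/Bcl6 mice. They are 10 of the 41128 genes in the count table, found by their symbols. The 10 are the matrix glycoproteins Fn1, Sparc and Postn, the fibrillar collagen chains Col1a1, Col1a2 and Col3a1, the non-fibrillar collagen chains Col4a1 and Col6a1, and the small leucine-rich proteoglycans Dcn and Lum. The questions asked of them were whether their levels differed between the genotypes, over all 9 tumors and over replicates 1 to 3, and whether Fn1 (fibronectin) varied between tumors with the collagens or with Csf1r, the receptor for macrophage colony-stimulating factor and a defining gene of macrophages.

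The matrix of a lymph node is laid down mainly by fibroblastic reticular cells, which wrap collagen fibers into the conduits and scaffold on which lymphocytes move, while basement membrane collagen surrounds the vessels. Fibrillar collagens form the load-bearing fibers, collagen VI forms beaded microfilaments beside cells, and Dcn and Lum bind collagen fibrils and regulate their diameter. Fn1 differs from the collagens in its sources, since monocytes and macrophages as well as fibroblasts can make it, and cells attach to it through integrins.

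RNA-seq was performed on 1 lymphoma each from 3 Bcl6 mice, which are Smc3 wt/wt, and 6 Smc3/Bcl6 mice, which are Smc3 wt/–. All 9 mice carried the IµBcl6 transgene, which drives Bcl6 in B cells, together with 1 Cγ1 cre allele, through which the Smc3 deletion was directed to germinal center B cells rather than to stromal or myeloid cells. The ages of the mice were not given in the sources used here. The tissue label is mesenteric lymph node for tumor 1 of each genotype and lymph node for the other 7. The study's text calls the lymphomas of both genotypes mesenteric, so the label may not mark a difference in site, and it is used below only as a label. The libraries are bulk RNA, and how the lymphoma cells were isolated is not given in the sources used here, so fewer cells of a type and less RNA per cell cannot be told apart in any value below. Each tumor is a separate mouse, and the p-values measure the spread between tumors.

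Total counts per tumor ranged from 10156728 to 17774577. Levels are given as CPM, the count scaled to a common library size with edgeR's TMM factors. The targeted gene, Smc3, stood at 88.1 to 126 CPM in the Bcl6 tumors, at 89.7 to 111 CPM in Smc3/Bcl6 tumors 1, 3, 4, 5 and 6, and at 27.9 CPM in Smc3/Bcl6 tumor 2, so its level separated only 1 tumor from the Bcl6 group. The count covers the whole gene while the allele was deleted by targeting exon 4, so it does not read the deleted part by itself. Within these counts the genotypes thus rest on the labels. The study itself reports, from RT-qPCR, the expected lower expression of the targeted gene in tumors with the deletion. Whether those tumors are among the ones sequenced is not given in the sources used here. The library of Smc3/Bcl6 tumor 2 stood apart in other ways. Its TMM factor was 0.693 against 0.964 to 1.10 in the others, and its genes deviated from the other tumors with a Spearman rho of -0.47 on exon length against -0.03 to 0.27 in the others. The change of Fn1 over replicates 1 to 3 and its correlations with Csf1r and Col1a1 are also given without this library. The correlation of Fn1 with Col6a1 was not computed without it.

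Fibronectin was the most variable of the matrix genes apart from Dcn and Lum. Fn1 (ENSMUSG00000026193.10, GRCm38 chromosome 1, 71585520 to 71653200, minus strand) is protein-coding, and its longest coding sequence in GENCODE M21 spans a transcript of 46 exons. Cells grip fibronectin at a short cell-binding loop, encoded within exon 30 at chr1:71606719-71606778, which is shown here because it is the part of the gene product that integrins recognise, with the 3 codons for arginine, glycine and aspartate in capitals.

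Fn1: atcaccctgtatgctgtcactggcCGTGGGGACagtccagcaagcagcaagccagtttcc

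In the Bcl6 tumors Fn1 stood at 4.15, 15.0 and 69.0 CPM in tumors 1, 2 and 3, which were 47, 277 and 730 counts. In the Smc3/Bcl6 tumors it stood at 1.25, 0.741, 4.07, 53.0, 12.9 and 9.93 CPM in tumors 1 to 6, which were 18, 7, 78, 796, 163 and 149 counts. The highest 2 of the 9 were Bcl6 tumor 3 and Smc3/Bcl6 tumor 4, the lowest 2 were Smc3/Bcl6 tumors 1 and 2, and the groups overlapped, because Smc3/Bcl6 tumors 4, 5 and 6 lay inside the Bcl6 range. Smc3/Bcl6 tumors 1, 2 and 3 all lay below every Bcl6 tumor, by a narrow margin for tumor 3. The mean was 29.4 ± 34.7 CPM in Bcl6 (SD, n = 3) and 13.6 ± 19.9 CPM in Smc3/Bcl6 (SD, n = 6), so each SD exceeded its mean.

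Sparc (ENSMUSG00000018593.7, GRCm38 chromosome 11, 55394500 to 55423183), a secreted glycoprotein that binds collagen and calcium, varied less. It stood at 1.85, 7.88 and 6.24 CPM in Bcl6 tumors 1, 2 and 3 and at 2.91, 1.80, 5.80, 11.6, 22.0 and 4.13 CPM in Smc3/Bcl6 tumors 1 to 6. The 2 genotypes overlapped in part. Smc3/Bcl6 tumors 4 and 5 lay above every Bcl6 tumor, with tumor 5 highest, and Smc3/Bcl6 tumor 2 was lowest, just below Bcl6 tumor 1. Postn (ENSMUSG00000027750.11, GRCm38 chromosome 3, 54361109 to 54391037), periostin of fibroblasts, was close to the counting limit, with 0, 1 and 6 counts in the Bcl6 tumors and 1, 0, 2, 10, 23 and 33 counts in Smc3/Bcl6 tumors 1 to 6. It did not pass the filter on low counts, and the 3 tumors with 10 or more counts were Smc3/Bcl6 tumors 4, 5 and 6.

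**Figure D1:**
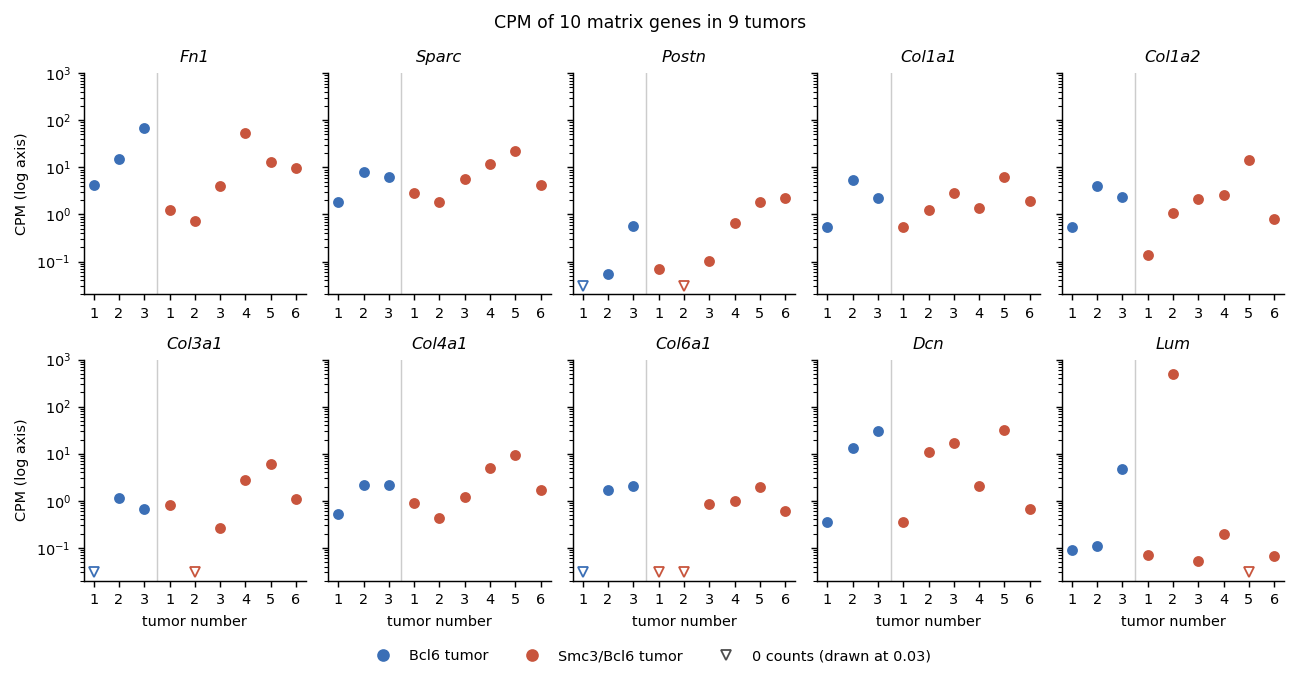
CPM (log axis) of the 10 matrix genes in each of 9 tumors, with tumor numbers on the x axis, Bcl6 tumors in blue and Smc3/Bcl6 tumors in red, and 0 counts as open triangles. Fn1 runs from 0.741 to 69.0 CPM, Dcn from 0.347 to 32.4 CPM, and Lum reaches 502 CPM in Smc3/Bcl6 tumor 2 against 4.73 CPM or less in the other 8 tumors.

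The 3 fibrillar collagen chains were expressed at a few CPM or less. Col1a1 and Col1a2 encode the chains that assemble into collagen I, and Col3a1 encodes collagen III, the reticular fiber collagen of lymphoid tissue. Each carries a long run of triplets of residues that begin with glycine, the repeat that lets collagen chains wind into a helix. The first 54 coding bases of the longest such repeat are shown for Col1a1 (plus strand, exons 6 and 7, between chr11:94939451-94939741) and for Col4a1 (minus strand, exons 2 and 3, between chr8:11247060-11267614), with the GGN glycine codons in capitals. They are set side by side because the unbroken repeat is 338 triplets long in Col1a1 and 40 in Col4a1, which is the difference in build between a fiber collagen and a network collagen. The stretches lie in 2 exons each, so the intervals include an intron.

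Col1a1: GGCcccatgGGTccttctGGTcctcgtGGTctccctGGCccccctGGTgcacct
Col4a1: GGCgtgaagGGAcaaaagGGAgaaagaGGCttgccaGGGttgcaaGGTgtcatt

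Col1a1 (ENSMUSG00000001506.10, GRCm38 chromosome 11, 94936224 to 94953042) stood at 0.529, 5.51 and 2.27 CPM in Bcl6 tumors 1, 2 and 3 and at 0.555, 1.27, 2.87, 1.4, 6.16 and 1.93 CPM in Smc3/Bcl6 tumors 1 to 6. Its ranges were nearly the same in both genotypes, and tumor 1 was the lowest in each. Col1a2 (ENSMUSG00000029661.11, GRCm38 chromosome 6, 4504814 to 4541544) stood at 0.529, 3.94 and 2.36 CPM in the Bcl6 tumors and at 0.139, 1.06, 2.14, 2.6, 14.1 and 0.80 CPM in the Smc3/Bcl6 tumors. Smc3/Bcl6 tumor 5 was the highest for both chains of collagen I, and tumor 1 was the lowest in each genotype for both. Col3a1 (ENSMUSG00000026043.13, GRCm38 chromosome 1, 45311538 to 45349706) had 0, 21 and 7 counts in the Bcl6 tumors and 12, 0, 5, 42, 77 and 16 counts in the Smc3/Bcl6 tumors. The 2 values of 0, in Bcl6 tumor 1 and Smc3/Bcl6 tumor 2, allow up to 0.265 and 0.317 CPM (3 counts of the library, for counting error only).

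Of the non-fibrillar chains, Col4a1 (ENSMUSG00000031502.9, GRCm38 chromosome 8, 11198423 to 11312826), the basement membrane collagen of vessels, stood at 0.529, 2.21 and 2.17 CPM in Bcl6 tumors 1, 2 and 3. In Smc3/Bcl6 tumors 1 to 6 it stood at 0.902, 0.423, 1.20, 5.06, 9.56 and 1.73 CPM. The highest 2 values were in Smc3/Bcl6 tumors 4 and 5, above all Bcl6 tumors, and the lowest was in Smc3/Bcl6 tumor 2. Col6a1 (ENSMUSG00000001119.7, GRCm38 chromosome 10, 76708792 to 76726168), of the microfilament collagen VI, had 0, 32 and 22 counts in the Bcl6 tumors and 0, 0, 16, 15, 25 and 9 counts in the Smc3/Bcl6 tumors. It was thus undetected in 3 tumors of 9, Bcl6 tumor 1 and Smc3/Bcl6 tumors 1 and 2, where 0 counts allow up to 0.265, 0.208 and 0.317 CPM.

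Dcn (ENSMUSG00000019929.10, GRCm38 chromosome 10, 97479609 to 97518143), decorin, split the tumors in another way. It stood at 0.353, 13.0 and 30.8 CPM in Bcl6 tumors 1, 2 and 3 and at 0.347, 10.9, 17.2, 2.06, 32.4 and 0.666 CPM in Smc3/Bcl6 tumors 1 to 6. All values were either 10.9 CPM or above, or 2.06 CPM or below, and both genotypes had tumors on each side. Its SD over the 9 tumors was 2.53 on the log2 CPM scale, against 2.14 for Fn1 and a median of 0.63 over the genes tested.

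Lum (ENSMUSG00000036446.4, GRCm38 chromosome 10, 97565128 to 97572703), lumican, was almost a gene of 1 tumor. It had 1, 2 and 50 counts in Bcl6 tumors 1, 2 and 3, and 1, 4744, 1, 3, 0 and 1 counts in Smc3/Bcl6 tumors 1 to 6. At 502 CPM in Smc3/Bcl6 tumor 2 it was far above Bcl6 tumor 3 at 4.73 CPM, and 7 tumors were at 3 counts or fewer. By the size of the gap between Smc3/Bcl6 tumor 2 and the next tumor on the log2 CPM scale, 6.69, Lum ranked 3 of 41128 genes. Dcn, its neighbor on chromosome 10 and the other proteoglycan of this kind, stood at 10.9 CPM in that tumor, inside the range of the others. Kera and Epyc, the next genes of the family on the other side of Lum, had 0 CPM there. These neighbors were looked at after the value of Lum was seen. The same library stood apart in TMM factor, in exon length and in Smc3, and their part in the Lum value was not tested.

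On a per-length scale, which allows genes to be compared, the 10 genes summed to 1.13 to 17.1 CPM per kilobase of exon in 8 tumors and to 208 in Smc3/Bcl6 tumor 2, where Lum made up 98.7% of the sum. Lum was 11.9% or less elsewhere. Sparc led in Bcl6 tumor 1 with 43.1%, in Smc3/Bcl6 tumor 1 with 60.4%, in Smc3/Bcl6 tumor 5 with 33.9% and in Smc3/Bcl6 tumor 6 with 34.4%. Fn1 led in Bcl6 tumor 3 with 36.5% and in Smc3/Bcl6 tumor 4 with 46.6%, and Dcn led in Bcl6 tumor 2 with 29.2% and in Smc3/Bcl6 tumor 3 with 50.4%. The lead was narrow in Bcl6 tumor 2, where Sparc had 27.4%, in Bcl6 tumor 3, where Dcn had 32.6%, and in Smc3/Bcl6 tumor 5, where Dcn had 32.5%. The leading matrix transcript thus differed between tumors of the same genotype, and none of the 5 collagen chains led in any of the 9 tumors. By median CPM per kilobase over the 9 tumors the order was Dcn at 1.87, Sparc at 1.53, Fn1 at 0.850, Col1a1 at 0.294, Col4a1 at 0.232, Col6a1 at 0.191, Col1a2 at 0.172, Col3a1 at 0.0848, Lum at 0.0360 and Postn at 0.0120. Csf1r stood at 45.5 on the same scale.

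**Figure D2:**
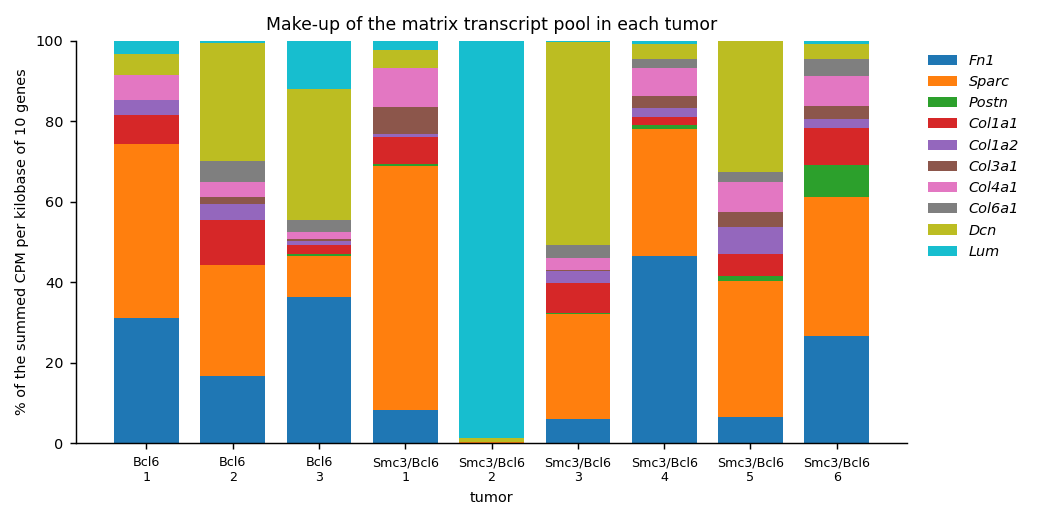
Share of each gene in the summed CPM per kilobase of exon of the 10 matrix genes (y axis, percent), 1 bar for each of 9 tumors. Lum fills 98.7% of the bar of Smc3/Bcl6 tumor 2, and Sparc, Fn1 or Dcn is the largest part of every other bar.

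All 10 genes varied more between tumors than the median gene. Their SDs of log2 CPM lay between percentile 81.6, for Col1a1, and percentile 99.98, for Lum, of the genes tested. Counts were low for some of them. Postn, Col6a1 and Col3a1 had fewer than 10 counts in 6, 4 and 4 of the 9 tumors.

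Over all 9 tumors no matrix gene separated the genotypes. Of the 10 genes, 8 passed the filter on low counts (Postn and Lum did not). Of these, 0 passed the thresholds of the study, an unadjusted p under 0.1 with a log2 fold change beyond 0.56 in either direction. Among all 14057 genes tested, 2.15% passed. The study applied these thresholds to DESeq2 and reported more genes lower than higher in Smc3/Bcl6. The edgeR fit here called 180 higher and 122 lower. Of the 8, 4 were fitted lower in Smc3/Bcl6 and 4 higher, with a median log2 fold change of 0.18 against 0.06 over all genes tested. Fn1 had a log2 fold change of -1.10 (SE 1.20, edgeR's quasi-likelihood test, unadjusted p = 0.378, adjusted p = 1.00), and the exact two-sided permutation test over the 84 splits of its log2 CPM gave p = 0.345. The sign and the call changed with single tumors. Without Bcl6 tumor 3 it was 0.51, and without Smc3/Bcl6 tumor 4 it was -2.40 and passed the thresholds (edgeR, unadjusted p = 0.0498).

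None of the other fitted changes reached 2 standard errors. Col3a1 was fitted at 1.58 (SE 1.42), Col4a1 at 0.93 (SE 0.98), Sparc at 0.59 (SE 0.81) and Col1a2 at 0.59 (SE 1.18), all toward higher in Smc3/Bcl6. Col6a1 at -0.78 (SE 1.32), Dcn at -0.47 (SE 1.36) and Col1a1 at -0.23 (SE 0.82) were fitted toward lower. The unadjusted p-values of these 7 genes by edgeR were 0.294 or above. The sign of 4 of them did not hold when 1 tumor was left out. Sparc fell to -0.02 and Col1a2 to -0.76 without Smc3/Bcl6 tumor 5, Col1a1 rose to 0.70 without Bcl6 tumor 2, and Dcn rose to 0.66 without Bcl6 tumor 3. With standard errors of 0.81 to 1.42 over the 8 genes, a difference of 2-fold was not detectable in any of them. No gene of the 14057 had an adjusted p below 0.05 by edgeR, with 79 at an unadjusted p below 0.05, and DESeq2 also called 0, with 209.

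Over replicates 1 to 3, in contrast, Fn1 was lower in Smc3/Bcl6. Fn1 levels of 4.15, 15.0 and 69.0 CPM in Bcl6 were set against 1.25, 0.741 and 4.07 CPM in Smc3/Bcl6, and the groups did not overlap, although the closest values, 4.15 and 4.07 CPM, were almost equal. The log2 fold change was -3.90 (SE 1.22, edgeR, unadjusted p = 0.0151, adjusted p = 1.00). Blocked on replicate number, it was -3.44 (SE 0.71, edgeR, unadjusted p = 0.00238, adjusted p = 0.983). The numbers are labels of separate mice. Deviations of same-numbered tumors from the genotype means correlated at only 0.13 and 0.18 for numbers 2 and 3, so the pairing is not established. The exact two-sided permutation test gave p = 0.1, the smallest that 3 against 3 allows. Fn1 thus passed the study's thresholds but not the correction for all genes, as did every gene called here, since 0 genes of 13360 had an adjusted p below 0.05 by edgeR (41 at an unadjusted p below 0.05) and 0 by DESeq2 (167). Fn1 was lower in 3 of 3 same-numbered pairs, by 1.62, 4.10 and 4.04 on the log2 CPM scale in pairs 1, 2 and 3. Leaving out Smc3/Bcl6 tumor 2 gave -3.47 (edgeR, unadjusted p = 0.0603), and without both tumors numbered 2 and with the block it was -3.02 (edgeR, unadjusted p = 0.0169). Without Bcl6 tumor 3 it was -2.20 (edgeR, unadjusted p = 0.0659), the smallest of these changes.

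Fn1 was the 1 gene called of the 7 matrix genes that passed the filter in this comparison (Postn, Lum and Col3a1 did not). Of all 13360 genes tested, 1.92% passed the thresholds. With the block Fn1 was again the 1 of 7, against 2.24%. The matrix genes were chosen with earlier results of these data known, so these shares are a description and not a test of the list. All 7 were fitted lower in Smc3/Bcl6, at a median of -0.98 against -0.03 over all genes tested, of which 53.2% were fitted lower. The others, from Col6a1 at -2.07 (SE 1.74) to Sparc at -0.64 (SE 0.75), did not pass, with unadjusted p-values by edgeR of 0.250 or above. Col6a1 passed when Smc3/Bcl6 tumor 3 was left out (edgeR, unadjusted p = 0.0492), where both remaining Smc3/Bcl6 tumors had 0 counts, so that the fitted change of -7.12 is no measure of size. Besides Fn1, Col1a2 was lower in all 3 pairs, by 1.26, 1.77 and 0.13, and Dcn by 0.02, 0.25 and 0.83 on the log2 CPM scale. So 3 of the 7 genes were lower in all 3 pairs, and 8.83% of the 13360 genes tested were. The 3 differences of Dcn and that of Col1a2 in pair 3 were smaller than the SDs of these genes between tumors, 2.53 and 1.64. Col1a1 was lower in only 1 of 3 pairs. Pair 2 held the largest fall of Fn1, Sparc, Col1a1, Col1a2, Col4a1 and Col6a1, and pair 2 includes the library of Smc3/Bcl6 tumor 2. Without both tumors numbered 2 and with the block, Sparc was fitted at 0.25 and Col1a1 at 0.21.

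**Figure D3:**
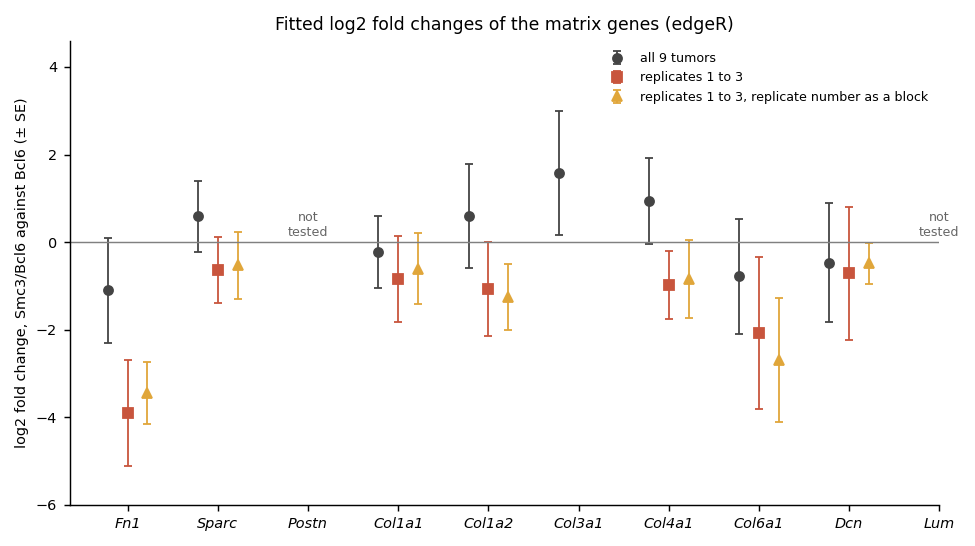
Fitted log2 fold change of Smc3/Bcl6 against Bcl6 (y axis) with its standard error for each matrix gene, over all 9 tumors (circles), over replicates 1 to 3 (squares) and over the same 6 tumors blocked on replicate number (triangles). Fn1 moves from -1.10 over all 9 tumors to -3.90 over replicates 1 to 3, and Col6a1 with the block, at -2.70 (SE 1.42), is the next lowest. Postn and Lum were not tested, and Col3a1 only over all 9 tumors.

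The 3 Smc3/Bcl6 tumors that the second comparison leaves out had 9.93 to 53.0 CPM of Fn1, against 0.741 to 4.07 CPM in the 3 it keeps. The 3 left out have no Bcl6 tumor with the same number, and the labels name no batch, so whether they were handled otherwise is not known. Marker levels did differ for some of them. The mean log2 CPM of the erythroid markers was 9.52, 3.20 and 8.19 in Smc3/Bcl6 tumors 4, 5 and 6, against 1.45 to 6.18 in tumors 1 to 3. For platelet and megakaryocyte markers it was 1.71, -0.85 and 2.41, against -1.75 to 0.12, so tumor 5 lay inside both ranges. Some markers of other cells were also called over replicates 1 to 3. Of 9 macrophage markers, 1 was called without the block (Emr1), against 1.92% of all genes. With the block 4 were called (Csf1r, Emr1, Mertk and Mrc1), against 2.24% of all genes, and each macrophage call was lower in Smc3/Bcl6. The rest of that list did not move one way, since 5 of 9 were fitted higher without the block, at a list median of 0.18, and 4 of 9 with it, C1qa, C1qb, C1qc and Cd68, at a list median of -0.17. Their summed level was 334 to 2549 CPM in the Bcl6 tumors and 154 to 3042 CPM in Smc3/Bcl6 tumors 1 to 3. Of 6 neutrophil markers, 4 were called lower without the block and 0 with it, against the same shares of all genes. Their summed level was 18.7 to 1749 CPM in Bcl6 and 27.3 to 190 CPM in Smc3/Bcl6 tumors 1 to 3. The mean log2 CPM of the neutrophil markers was 3.51, 1.12 and 7.84 in Bcl6 tumors 1, 2 and 3. In Smc3/Bcl6 tumors 1, 2 and 3 it was 3.77, 3.00 and 1.32, so unlike Fn1 it was lower only for number 3. None of these 15 genes was at 0 counts throughout a group. In the other lists, 1 of 5 plasma cell markers was called higher without the block and 1 of 5 T-cell markers lower with it. The 3 platelet and megakaryocyte markers tested were all fitted lower, at a median of -1.02 without the block, and 0 were called. The part of these markers in the Fn1 difference was not tested.

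Among 89 further matrix genes (other collagens, basement membrane, other glycoproteins and proteoglycans, collagen-modifying enzymes, proteases and their inhibitors, receptors and the TGF-beta pathway), few passed. Over all 9 tumors 62 were tested and 2 passed, against the 2.15% of all genes given above, with a median log2 fold change of -0.04. Vcan, which encodes the large proteoglycan versican, had 0.706, 0.378 and 8.70 CPM in the Bcl6 tumors and a lowest, median and highest value of 0.208, 0.789 and 1.36 CPM in the Smc3/Bcl6 tumors. Its log2 fold change of -2.15 (SE 0.94, edgeR, unadjusted p = 0.0452, adjusted p = 1.00) came with 1 high tumor, Bcl6 tumor 3, and the other 2 Bcl6 tumors lay inside the Smc3/Bcl6 range. Col14a1, a collagen that lies on the surface of fibrils, had 0.970, 0.540 and 0.284 CPM in Bcl6 and 0.106, 0.617 and 19.99 CPM as lowest, median and highest in Smc3/Bcl6. Its log2 fold change was 3.45 (SE 1.77, edgeR, unadjusted p = 0.0804, adjusted p = 1.00). Only Smc3/Bcl6 tumors 4 and 6, at 18.1 and 19.99 CPM, stood above the Bcl6 tumors.

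Over replicates 1 to 3, 49 of the 89 were tested and 3 passed, all lower in Smc3/Bcl6, against the 1.92% of all genes given above, of which 88 of 13360 were lower. The median log2 fold change of the 49 was -0.32 against -0.03 over all genes tested. Without Smc3/Bcl6 tumor 2 there was 1 call, Lamc1, a laminin chain, which was higher at 0.68, and without Bcl6 tumor 3 there was also 1, Plod1, a collagen lysyl hydroxylase, which was higher at 1.35, so the 3 calls were lost without either tumor. Without Bcl6 tumor 1 there were 8 calls among 59 tested and without Smc3/Bcl6 tumor 3 there were 12 among 51, all lower. Over all genes, those at an unadjusted p below 0.05 by edgeR rose as well. They went from 41 of 13360 to 68 of 13946 without Bcl6 tumor 1 and to 920 of 13680 without Smc3/Bcl6 tumor 3. The share of all genes past the thresholds was not computed for these fits, so the 8 and 12 calls cannot be set against it. Genes named from fits without a tumor were chosen after their values were seen. Thbs1, the adhesive glycoprotein thrombospondin 1, had 0.794, 5.18 and 18.4 CPM in Bcl6 tumors 1, 2 and 3 and 1.94, 2.12 and 1.67 CPM in Smc3/Bcl6 tumors 1, 2 and 3. Its log2 fold change was -2.19 (SE 1.04, edgeR, unadjusted p = 0.0744, adjusted p = 1.00), although Bcl6 tumor 1 was below all 3. Mmp8 had 3.26, 0.540 and 27.5 CPM against 2.43, 1.16 and 0.836 CPM, and Mmp9 had 5.91, 2.11 and 64.2 CPM against 3.40, 2.01 and 6.58 CPM. Both are collagen- and gelatin-cleaving proteases that neutrophils store in granules, and in both the difference lay in Bcl6 tumor 3, with log2 fold changes of -2.92 (SE 1.36) and -2.66 (SE 1.28). The neutrophil markers given beside Fn1 moved with them, and their part in the protease difference was not tested.

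With the block, 6 of the 49 passed and none was Thbs1, Mmp8 or Mmp9, all 6 lower in Smc3/Bcl6, against 1.9% of all genes called lower in that fit. They were Col16a1, a fibril-associated collagen, at -2.26, Vcan at -1.93, the collagen receptor chain Itga2 at -2.35, Ddr1, a receptor kinase for collagen, at -1.44, Itgb3, a chain of the vitronectin and fibrinogen receptors, at -1.68, and Tgfbr1, a receptor chain for TGF-beta, at -0.97. The unadjusted p-values of these 6 by edgeR ran from 0.0390 to 0.0969, with adjusted p = 0.983. The list's median was -0.53 in this fit against -0.08 over all genes tested. By group, 3 of the 13 tested receptors, 1 of 3 collagens, 1 of 6 glycoproteins and proteoglycans and 1 of 5 TGF-beta pathway genes were called lower, and 0 of 6 basement membrane genes, 0 of 9 modifying enzymes and 0 of 7 proteases and inhibitors. The 13 receptors were all fitted lower both with and without the block, at medians of -0.74 and -0.54. Of all genes tested, 56.2% with the block and 53.2% without it were fitted lower, at medians of -0.08 and -0.03. With the block and an offset for exon length and GC content 12 of the 13 receptors were lower, at a median of -0.35, and the median of the whole list was -0.32. Vcan and Itga2 were not called in that fit. Without both tumors numbered 2, which include the library that deviated by exon length, 5 genes of the list were called with the block. Mmp9 at -2.10, Tgfbi at -0.61 and Vcan at -2.30 were lower, and Mmp2 at 1.20 and Col5a3 at 2.27 were higher, so that of the 6 genes above Vcan alone was called and the calls were no longer in 1 direction.

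Between tumors, some pairs of the matrix genes varied together. Over 9 tumors and the 55 pairs that the 10 genes and Csf1r form, 46 Pearson correlations of log2 CPM were positive, and 11 by Pearson and 14 by Spearman had an adjusted p below 0.05, none of them with Postn, Lum or Csf1r (exact permutation over all orders of the tumors, Benjamini-Hochberg over 55 pairs). All 9 negative correlations were those of Lum, with every gene but Dcn, and its 1 high tumor was the lowest or tied for lowest in Fn1, Sparc, Col3a1 and Col4a1. They changed without Smc3/Bcl6 tumor 2 and Bcl6 tumor 3, where r of Lum went from -0.31 to 0.44 with Fn1, from -0.52 to -0.14 with Col3a1, and from 0.30 to -0.40 with Dcn. The closest pair was Sparc and Col4a1, at r = 0.97 (exact permutation, adjusted p = 0.00318) and rho = 0.98 (adjusted p = 0.00273), and r was 0.94 without the 2 tumors farthest from the median. Col3a1 went with Col4a1 at r = 0.94 (exact permutation, adjusted p = 0.00909) and with Sparc at r = 0.90 (adjusted p = 0.0230 by the exact permutation). The 2 chains of collagen I, Col1a1 and Col1a2, correlated at r = 0.89 (exact permutation, adjusted p = 0.0183) and rho = 0.83 (adjusted p = 0.0413), and at r = 0.80 without 2 tumors.

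Dcn went with collagen I, at r = 0.79 with Col1a1 (exact permutation, adjusted p = 0.0580) and 0.80 with Col1a2 (exact permutation, adjusted p = 0.0410). With Col3a1, also a fiber collagen, Dcn had r = 0.22 (exact permutation, adjusted p = 0.614), and the difference between these correlations was not tested. Some of the relations rested on tumor 1 of each genotype, the 2 tumors labelled mesenteric, in which nearly all of these genes were low. Without them r fell from 0.85 to 0.67 for Col1a1 with Col6a1, and from 0.80 to 0.60 for Col1a2 with Dcn, and the exact permutation p values of 0.0893 and 0.152 no longer lay below 0.05. Col6a1 has 3 values at 0 counts in its 9, which are tied, so its correlations partly read whether the gene was detected.

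**Figure D4:**
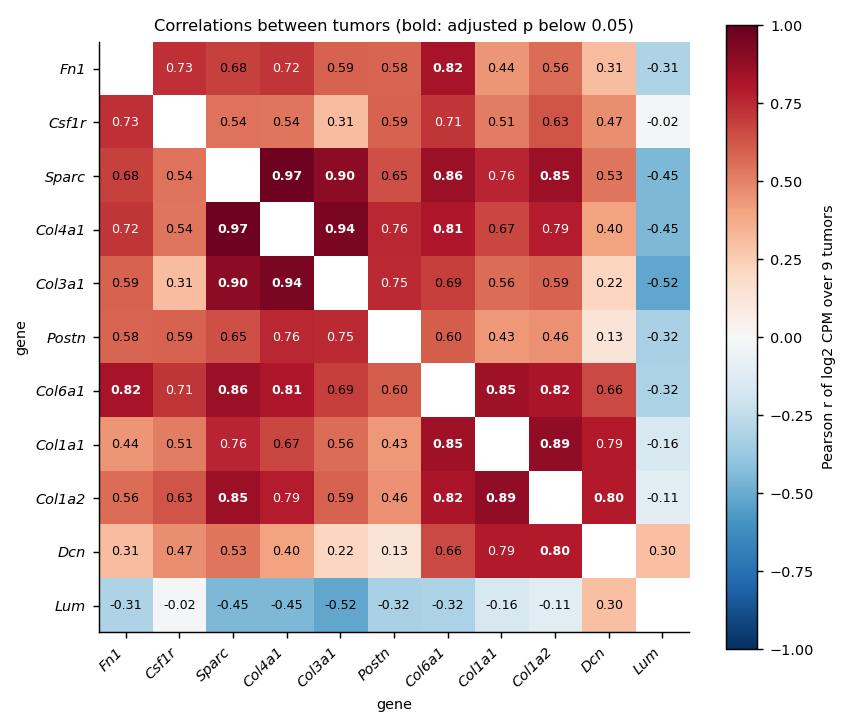
Pearson r of log2 CPM over 9 tumors between the 10 matrix genes and Csf1r, with blue for negative and red for positive values and bold type for an adjusted p below 0.05. Sparc, Col4a1 and Col3a1 form a block of 0.90 to 0.97, Fn1 is bold only with Col6a1 at 0.82, and Lum is negative with all genes except Dcn.

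Fn1 varied with Csf1r and with part of the collagens. With Csf1r it had r = 0.73 (exact permutation, p = 0.0215, adjusted p = 0.0735) and rho = 0.72 (p = 0.0369, adjusted p = 0.105), and with Col1a1 r = 0.44 (exact permutation, p = 0.237, adjusted p = 0.311) and rho = 0.47 (p = 0.213, adjusted p = 0.30). The difference between these 2 correlations was not tested. Other collagens lay between or above. Fn1 with Col6a1 had r = 0.82 (exact permutation, adjusted p = 0.0410) and rho = 0.85 (adjusted p = 0.0413), the only relation of Fn1 that passed the adjustment, and with Col4a1 it had r = 0.72 (exact permutation, adjusted p = 0.0823) and rho = 0.80 (adjusted p = 0.0507). With Sparc r was 0.68, with Col3a1 0.59, with Col1a2 0.56 and with Dcn 0.31. Col6a1 was undetected in Smc3/Bcl6 tumor 2, which was also lowest in Fn1. The relation of Fn1 with Col6a1 was not computed without that tumor.

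Csf1r itself stood at 82.0, 118 and 498 CPM in Bcl6 tumors 1, 2 and 3 and at 10.7, 100.01, 361, 720, 263 and 375 CPM in Smc3/Bcl6 tumors 1 to 6. The tumor lowest in Csf1r, Smc3/Bcl6 tumor 1, was next to lowest in Fn1, and the 2 highest in Csf1r, Smc3/Bcl6 tumor 4 and Bcl6 tumor 3, were the 2 highest in Fn1. Smc3/Bcl6 tumors 2 and 3 departed from this order, since tumor 3 had 361 CPM of Csf1r with 4.07 CPM of Fn1, and tumor 2 had the lowest Fn1 of all at 100.01 CPM of Csf1r. The 7 tumors labelled lymph node leave out the 2 tumors farthest from the median of Csf1r. Within them r for Fn1 with Csf1r was 0.70 (exact permutation, p = 0.0742). For Fn1 with Col6a1 it was 0.82 (exact permutation, p = 0.0246) and for Fn1 with Col1a1 it was 0.16 (exact permutation, p = 0.738). In Col6a1, Bcl6 tumor 1 and Smc3/Bcl6 tumors 1 and 2 were all undetected and tied, and Smc3/Bcl6 tumor 2 stayed among the 7. The mesenteric label holds only 2 tumors and allows no value of its own. Taken as deviations from the genotype means, r was 0.79 for Csf1r and 0.46 for Col1a1. Without Smc3/Bcl6 tumor 2 the r with Csf1r was 0.79 and with Col1a1 0.42.

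**Figure D5:**
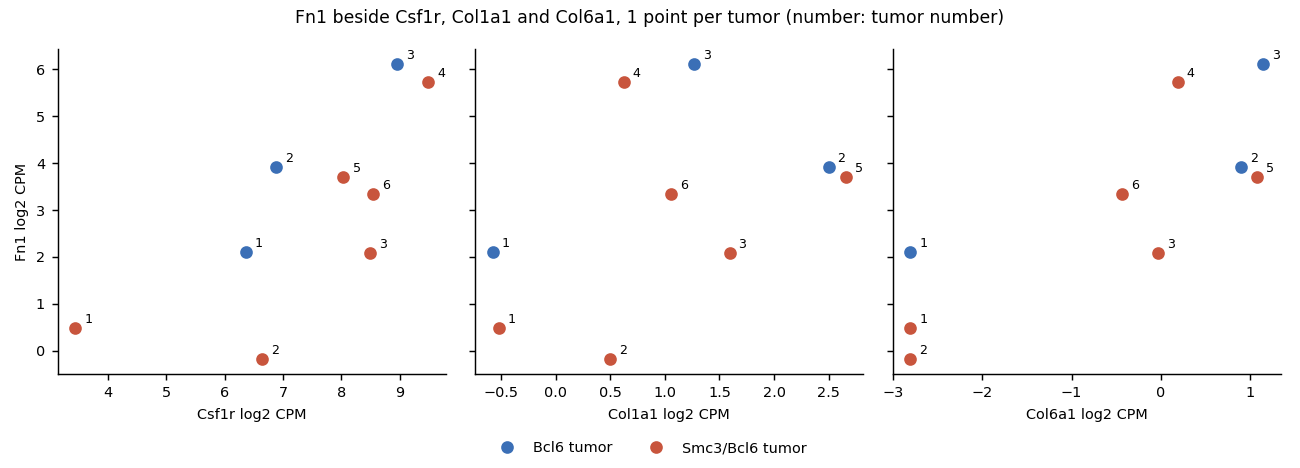
Fn1 log2 CPM (y axis) against Csf1r, Col1a1 and Col6a1 log2 CPM (x axes), 1 point per tumor, with Bcl6 tumors in blue, Smc3/Bcl6 tumors in red and the tumor number beside each point. Bcl6 tumor 3 and Smc3/Bcl6 tumor 4 are high in Fn1 and Csf1r together, with r = 0.73, while Col1a1 spreads widely, with r = 0.44, and 3 tumors sit at the left of the Col6a1 panel because they had 0 counts.

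Macrophage genes did not move with Fn1 as 1 group. As a description over the same 9 tumors, r with Fn1 was 0.79 for Mertk, a receptor for dying cells on macrophages, 0.67 for Emr1, the macrophage surface antigen F4/80, and 0.55 for the mannose receptor Mrc1. It was 0.30 to 0.34 for the complement chains C1qa, C1qb and C1qc, 0.31 for the Fc receptor Fcgr1 and 0.12 for the lysosomal protein Cd68. The mean log2 CPM of the 9 macrophage markers had r = 0.62 with Fn1 (exact permutation, adjusted p = 0.491). Among the 14022 genes tested that were ranked by their r with Fn1, Col6a1 stood at rank 88, Mertk at 153, Csf1r at 371, Col4a1 at 463 and Col1a1 at 3517.

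Among the genes most like Fn1 by Pearson r over the 9 tumors were 2010315B03Rik at 0.97, the transcription factor Klf7 at 0.96, the endolysosomal channel Tpcn2 at 0.92 and the sulfatase Arsg at 0.92. The 5 most like Col1a1 were the complement component C2 at 0.96, the calcium channel Ryr3 at 0.95, Slc22a15 at 0.95, Ttc39b at 0.93 and the oncostatin M receptor Osmr at 0.92. None of the genes named here was on the lists of matrix genes or in both sets. They are among the highest of 14022 values and are given as a description.

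Of 90 relations between the 10 matrix genes and the mean levels of 9 lists of cell type markers, 0 had an adjusted p below 0.05 by Pearson and 1 by Spearman (exact permutation). That 1 was Col1a1 with the fibroblast and reticular markers, at rho = 0.95 (exact permutation, adjusted p = 0.0317) and r = 0.89 (adjusted p = 0.105), and r was 0.80 without 2 tumors. Of these 9 markers 6 passed the filter, and their summed level was 2.21 to 68.5 CPM in Bcl6 and 5.27 to 193 CPM in Smc3/Bcl6. None was at 0 counts in every tumor of a genotype. Dcn had r = 0.84 with the fibroblast list (exact permutation, adjusted p = 0.126) and r = 0.91 with the T-cell list (exact permutation, adjusted p = 0.126), so it did not go with 1 list alone. Fn1 had r = 0.43 with the fibroblast list, 0.64 with the endothelial list, 0.11 with the T-cell list and 0.06 with the B-cell list. It had r = 0.55 with the platelet and megakaryocyte list, 0.39 with the neutrophil and with the erythroid list, and -0.31 with the plasma cell list. The adjusted p-values of these relations were 0.491 or above by the exact permutation.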

How the data were processed

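Each of the 9 lymphomas gave 1 RNA-seq library. Reads had been run by the authors through an nf-core workflow, with STAR alignment to mm10, Gencode gene models and featureCounts, and the deposited values are raw counts per gene. R 4.0.2 and DESeq2 1.28.1 are named in the submitters' processing notes. The table had 0 columns without a sample. Positions, exon lengths and coding sequences were taken from GENCODE M21 on GRCm38, which held 97.9% of the identifiers.

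Genotype and replicate number came from the sample titles. Genotypes were compared over all genes with edgeR 4.0.16 in R 4.3.3, using TMM factors, the filterByExpr filter, the quasi-likelihood test and p-values adjusted by Benjamini-Hochberg over the genes tested. The thresholds on p and fold change were those of the study, which applied them to DESeq2. Log2 CPM used a prior count of 2. Adjusted p-values printed as 1.00 were at or above 0.9995. Single genes were also compared by exact permutation over splits of the tumors, and correlations by exact permutation over all orders of the tumors. CPM per kilobase divides by merged exon length.

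The members, the further matrix genes and the marker lists were chosen with earlier results of these data known. Genes named were the 10 members, Csf1r, Smc3, further matrix genes past the thresholds (at most 6 per comparison by smallest p), the 5 genes most like Fn1 (1 of them is not reported here) and the 5 most like Col1a1, and markers beside a result. Deviations from the genotype means of same-numbered tumors correlated at 0.47, 0.13 and 0.18 for numbers 1, 2 and 3. Bcl6 tumor 2 correlated best with Smc3/Bcl6 tumor 3, at 0.36, so this check does not establish pairs. The pairing rests on the labels' numbers, each tumor is a separate mouse, and the fits without the block are the main ones. The fits were tested on simulated counts. Alternatives were DESeq2 1.42.0, limma 3.58.1 (voom, tumors weighted by quality), relative log expression size factors, no filter, the tissue label as a covariate, an offset for exon length and GC content (lowess span 0.3), a prior count of 0.5, library totals, the replicate block, and each tumor left out. A block over numbers 1 and 3 was added after the library of Smc3/Bcl6 tumor 2 was seen to stand apart.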

Additional observations from a re-analysis of the deposited data

Results flagged for a closer look

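Of the values examined, 2 among the 6 Smc3/Bcl6 tumors lay farther from the others than Dixon's test at 95% allows, of 20 sets of 6 values examined, and chance flags about 1 in 20. Lum in Smc3/Bcl6 tumor 2 was one of them. Its gap to the nearest tumor, on the log2 CPM scale, was 0.893 of the whole range, against a critical value of 0.625. The other was the mean of the macrophage markers in Smc3/Bcl6 tumor 1, which was low, with a gap of 0.681 of the range. That tumor was also low in Fn1, at 1.25 CPM, and in Col1a2, at 0.139 CPM. The causes were not tested.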

How the results depend on the processing

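Of the alternatives, 0 called a member at an adjusted p below 0.05. Over all 9 tumors the members called went from 0 to 1 with no filter on low counts (Lum, log2 fold change 5.65, through Smc3/Bcl6 tumor 2). With single tumors left out they also went from 0 to 1 (Postn without Bcl6 tumor 3, Fn1 without Smc3/Bcl6 tumor 4). Postn passed the filter there with 10 or more counts only in Smc3/Bcl6 tumors 4, 5 and 6. Its call thus came through the group where it is high. Over replicates 1 to 3 the members called went from 1 to 2 with no filter (Lum again). They went from 1 to 3 with tumors left out (Col6a1 and Lum beside Fn1 without Smc3/Bcl6 tumor 3), and Fn1 was called in all of these. The further matrix genes called over 9 tumors went from 2 to 8 with limma's quality weights, to 1 with the tissue label as a covariate, and from 1 to 5 with tumors left out. All genes at an unadjusted p below 0.05 went from 79 (edgeR) to 1171 (limma) of 14057 with quality weights. By edgeR they were 90 with the tissue label and 39 to 254 with tumors left out. Over replicates 1 to 3 the further matrix genes called went from 3 to 6 with the replicate block, to 7 with the block and the length and GC offset, to 5 with the block over numbers 1 and 3, and from 1 to 12 with tumors left out. All genes at an unadjusted p below 0.05 by edgeR went from 41 to 96, 104 and 118 with these blocks, and from 46 to 920 with tumors left out. The block changed the call of none of the 7 members tested. It changed marker calls, given in the report. Fn1 over 9 tumors ran from -2.40 to 0.51 with tumors left out. Of changes that passed no test, Sparc reversed to -0.10 and Col1a2 to -1.04 with quality weights, and Col1a2 to -0.0695 with the tissue label. With tumors left out, the ranges over 9 tumors were -0.0179 to 0.94 for Sparc, -0.79 to 0.70 for Col1a1, -0.76 to 1.21 for Col1a2 and -1.23 to 0.66 for Dcn, and over replicates 1 to 3 they were -1.71 to 0.10 for Col1a1 and -1.56 to 0.49 for Dcn. With the block over numbers 1 and 3, Sparc was 0.25 and Col1a1 0.21. Fn1 with Csf1r had r = 0.70 (exact permutation, p = 0.0742) in tumors labelled lymph node, and 0.67 to 0.80 with tumors left out, with p above 0.05 without Smc3/Bcl6 tumor 4. The causes were not tested. Depth limits Postn, Col3a1, Col6a1 and Lum, which had under 10 counts in 4 or more tumors.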
